A study of Mus musculus with 12 samples.

Results

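The genes described here encode the machinery that fuses secretory vesicles with the plasma membrane, measured in mouse pituitaries on Illumina bead arrays. They were taken by gene symbol: the synaptotagmins and synaptotagmin-like proteins, syntaxins and syntaxin-binding proteins, vesicle-associated membrane proteins (VAMPs), complexins, Unc13 proteins, Rab3 and Rab27 GTPases, and Snap23, Snap25, Snap29, Nsf, Napa, Napb, Napg, Cadps and Cadps2. That gave 71 genes with 121 of the 46147 probes on the array, each represented by its brightest probe, and 49 of them were bright enough to be tested among 11731 features. Mice carried a knocked-out (Crhr1-ko, here KO) or an intact (Crhr1-wt, here WT) Crhr1 gene, which encodes the pituitary receptor for corticotropin-releasing hormone (CRH). The 6 groups were KO control, KO 1 h, KO 3 h, WT control, WT 1 h and WT 3 h, where stress was restraint lasting 30 min and death followed 1 h or 3 h after its start. All groups, controls included, received metyrapone, which blocks corticosterone synthesis and with it the steroid's feedback, at 150 mg/kg 12 h before and at 100 mg/kg directly before the time of stress. Per the labels, RNA was pooled and the 2 arrays of a group are technical replicates. The p-values of fits on single arrays thus measure the spread between arrays and not between mice. Those over the 6 pool means measure how far the pools depart from added effects of genotype and treatment, also not the spread between mice. The mice per pool, their age and the way the gene was deleted are not given in the sources used here. For the KO 3 h and KO control arrays the labels disagree, as the source text puts death at 1 h, and the titles were followed.

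Regulated secretion runs through a fixed cycle. Rab3 and Rab27 GTPases and their effectors, among them the synaptotagmin-like proteins, bring hormone granules to the plasma membrane, where Unc13 and CAPS proteins (Cadps, Cadps2) prime them. A vesicle SNARE of the VAMP family then pairs with a syntaxin and a member of the SNAP-25 family, complexins hold and assist the assembled complex, and synaptotagmins trigger fusion when calcium rises. After fusion the ATPase NSF and its adaptors, the SNAP proteins, take the SNARE complex apart. In the pituitary this machinery releases the stored hormones, including ACTH from corticotropes after CRH binds its receptor.

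Values below are log2 normalized intensities, given for replicate 1 and then replicate 2 of each pool, and differences are log2 differences with limma's standard error. Levels are compared only between arrays for the same probe. Between 6119 and 13506 probes were detected per array at a detection p-value under 0.01, the fewest on replicate 2 of KO 3 h, which detected 29 of the 71 genes where the other 11 arrays detected 39 to 46. The 2 KO 3 h arrays also correlated least (r = 0.925 across probes, against 0.967 to 0.981 in the other groups). Pomc, Gh and Prl, which define pituitary endocrine cells, were detected on all 12 arrays, while the marker genes Pcsk1, Pax7, Nr5a1, S100b and Kdr were detected on fewer than 2. The Crhr1 probe read 6.32 and 6.05 in the KO control pool, 5.17 and 6.18 at KO 1 h and 5.72 and 5.34 at KO 3 h. In WT Crhr1 read 5.49 and 6.85 in the control pool, 5.23 and 5.89 at 1 h and 5.55 and 5.79 at 3 h. It was detected on 1 KO control and 1 WT control array, so it does not separate the genotypes, and its position relative to the deleted part is not given here. Lipf and Lyz1, of a list of exocrine or gut genes, were detected on the KO 3 h arrays alone. The list's 4 measured genes summed to 1462.6 and 1388.3 intensity units in KO 3 h and to between 126.5 and 176.4 on the other 10 arrays, with Prss1 and Cela1 detected on fewer than 2 arrays.

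Of the 71 genes, 29 were detected on all 12 arrays, 8 on 11 and 12 on 2 to 10, while 16 were detected on no array and 6 on 1. The 3 SNAP-25 family genes and all 4 disassembly genes were tested, as were 5 of 6 Rab genes, 4 of 4 plasma membrane syntaxins, 8 of 10 internal and other syntaxins, 5 of 7 VAMPs and 2 of 4 complexins. Coverage was lower for the priming factors (3 of 6), the synaptotagmin-like genes (3 of 5), the syntaxin-binding genes (2 of 5) and the synaptotagmins (10 of 17). Genes below the filter were Unc13a, Unc13c, Unc13d, Rab3c, Sytl2, Sytl5, Stx16, Stx19, Stxbp3, Stxbp5l, Stxbp6, Vamp5, Vamp7, Cplx3, Cplx4, and the synaptotagmins Syt2, Syt3, Syt6, Syt7, Syt8, Syt10 and Syt14. For these the arrays set no level, and their differences were not analysed here. The median range of the tested genes' pool means over the 6 pools was 0.59 on the log2 scale. Vamp4 varied least, by 0.12, followed by Rab3d (0.27), Stx4a (0.29) and Nsf (0.30), whereas 8 genes ranged over more than 1, the widest being Cplx2 (1.39), Rab27b (1.33) and Snap23 (1.25). The map of deviations by array shows which pools set those ranges.

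**Figure D1:**
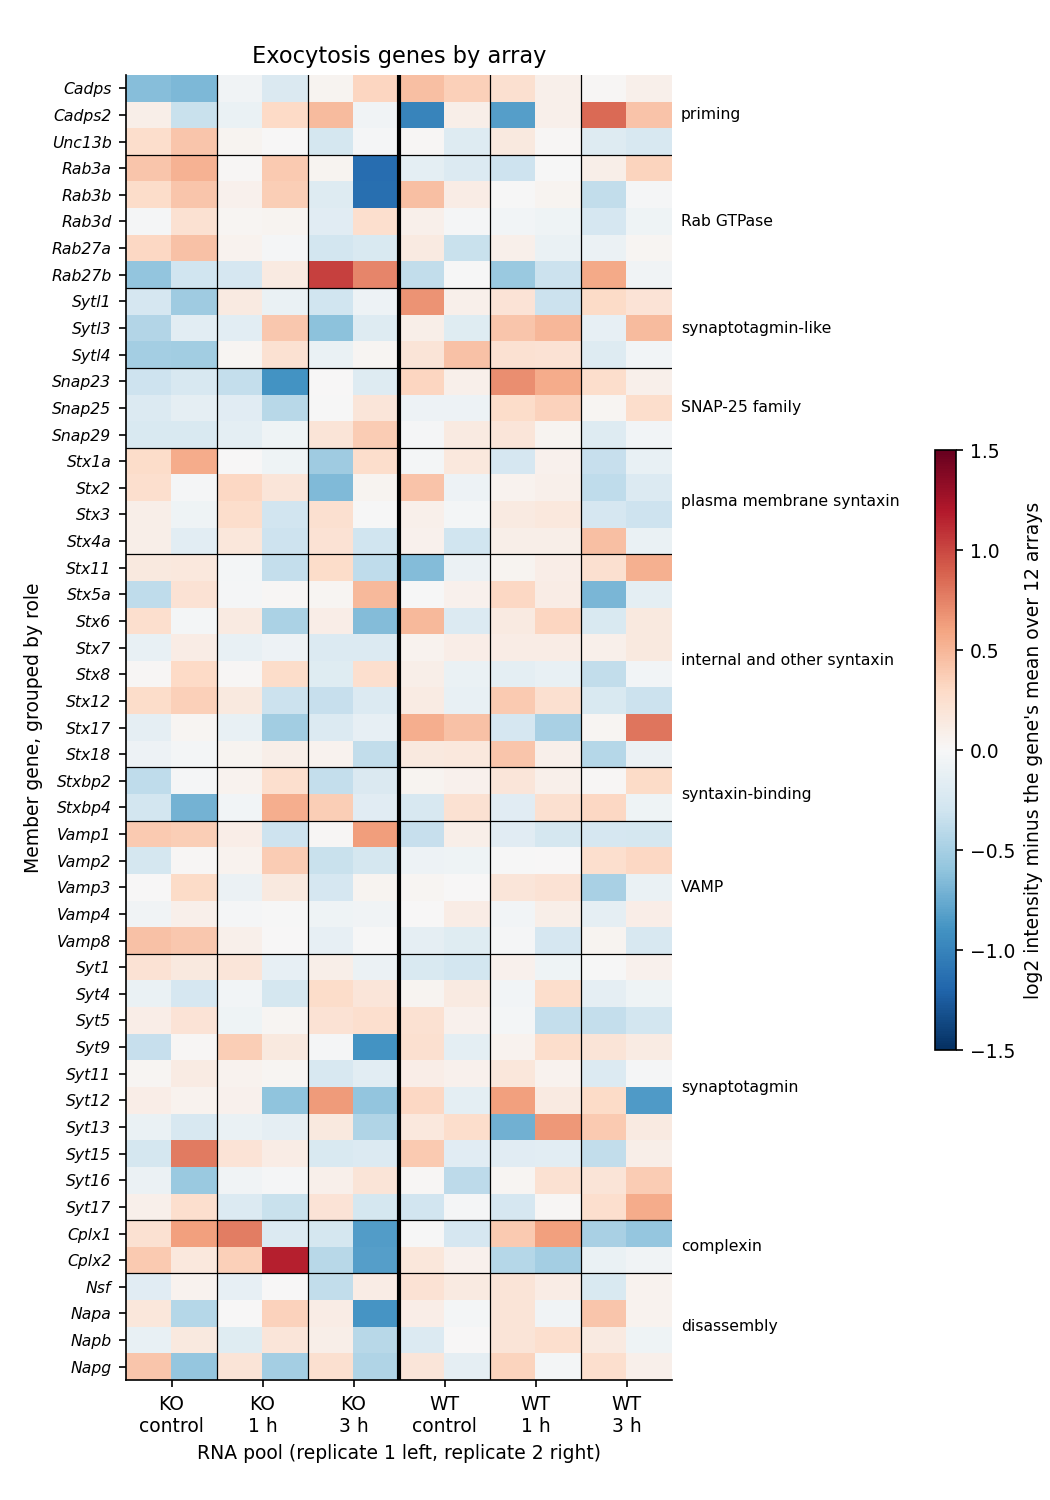
Deviation of each of the 49 tested genes from its own mean over 12 arrays (log2 intensity, red above and blue below), with genes in rows by role and arrays in columns, KO pools left of WT pools and replicate 1 left of replicate 2. Cadps and Sytl4 are blue on both KO control arrays and not on the WT control arrays, Rab27b is red on both KO 3 h arrays, and Rab3a, Rab3b, Syt9 and Napa are dark blue on replicate 2 of KO 3 h alone.

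A gene passed the test at an adjusted p under 0.05 over all 11731 features and a difference of at least 1.5-fold. By that rule 5 differences in 4 exocytosis genes passed. All 5 kept their sign but no longer passed with median centring in place of quantile normalization (limma's adjusted p between 0.0679 and 0.266) or in fits on the 4 arrays of the groups compared alone (0.0739 to 0.242). In unstressed pituitaries, Cadps and Sytl4 were lower in KO than in WT, 2 of 49 genes, where 1.48% of all features passed as lower and 2.31% in either direction. At 3 h against control in KO, Cadps and Rab27b rose, 2 of 49, where 4.02% of features passed as higher and 10.6% in either direction. At 1 h Snap23 was lower in KO than in WT, 1 of 49, where 0.631% of features passed as lower and 0.81% in either direction. No gene passed in KO 1 h against control (0.23% of features), WT 1 h against control (0.0682%), WT 3 h against control (0.23%) or KO against WT at 3 h (1.71%). At an unadjusted p under 0.05 those comparisons held 4, 2, 7 and 8 of the 49 genes by limma, against 13.1%, 5.6%, 12% and 17.8% of all features. The test of the difference between the KO and the WT stress responses passed no gene at 1 h (0.0511% of features) or 3 h (0.435%), with 6 and 11 genes at an unadjusted p under 0.05, against 10.2% and 18% of all features. Over the 6 pool means, no gene passed for KO against WT (0.0511%), 1 h against control (0%) or 3 h against control (0%), and 1, 0 and 4 genes had an unadjusted p under 0.05, against 10.6%, 1.94% and 10.9% of all features. Median differences of the 49 genes and of all features were -0.04 and 0.01 for KO against WT controls. For KO 3 h against control both were -0.11. Among the comparisons of 2 groups these medians lay furthest apart in WT 3 h against control, at -0.13 and -0.02. In KO 3 h against control, 15 of the 49 genes had a positive difference and 34 a negative one, where all features had a negative median too (-0.11).

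**Figure D2:**
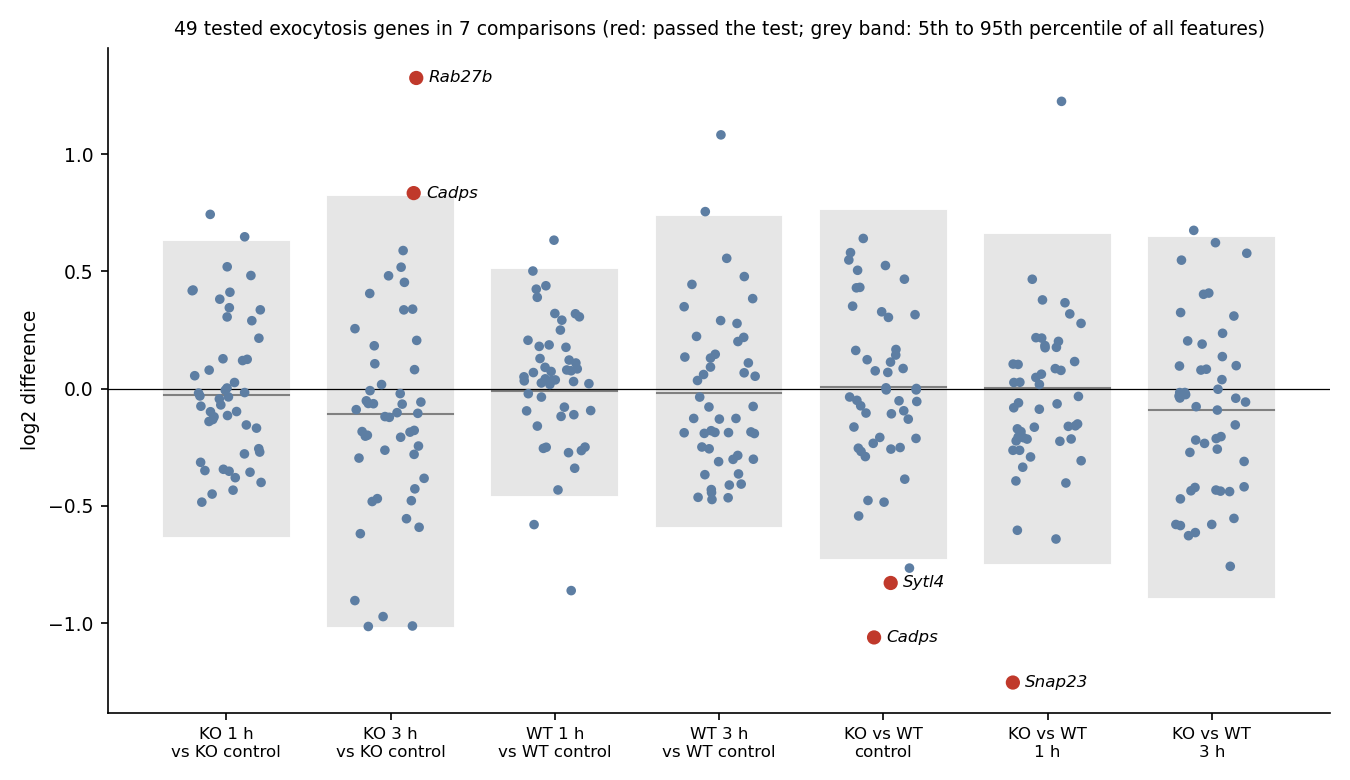
Log2 differences of the 49 tested genes (points) in 7 comparisons of 2 groups, with the grey band spanning the 5th to the 95th percentile of all features, the grey line at their median and red points passing the test. The points lie mostly inside the bands, and the red points are Rab27b and Cadps in KO 3 h against control, Cadps and Sytl4 in KO against WT controls, and Snap23 in KO against WT at 1 h.

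Among the priming factors, Cadps stood apart between unstressed KO and WT pituitaries. Cadps encodes CAPS1, which readies dense-core granules for calcium-triggered release. It read 8.18 and 8.14 in the KO control pool, 8.76 and 8.60 at KO 1 h and 8.86 and 9.13 at KO 3 h. In WT Cadps read 9.27 and 9.18 in the control pool, 9.06 and 8.89 at 1 h and 8.83 and 8.89 at 3 h. The KO control arrays were the lowest of the 12 and the WT control arrays the highest, and the 2 control pools did not overlap. Cadps was lower in KO controls than in WT controls by a log2 difference of -1.06 ± 0.16 (adjusted p = 0.0182), with -1.09 on slide 1 and -1.03 on slide 2. Against the same KO control pool, KO 3 h was higher by 0.83 ± 0.16 (adjusted p = 0.0169), with 0.68 on slide 1 and 0.99 on slide 2. KO 1 h stood 0.52 ± 0.16 above that pool, which did not pass (adjusted p = 0.238). The 2 calls of Cadps thus share the KO control arrays and are not independent of each other. In WT the values at 1 h and 3 h lay -0.25 and -0.36 from control, neither passing, and at 3 h KO and WT differed by 0.14 ± 0.16. The difference between the 2 responses at 3 h was 1.20 ± 0.22 and missed the threshold (adjusted p = 0.0656). The call in controls was lost when any of the 4 arrays of those pools was left out, with adjusted p between 0.106 and 0.187, while the difference stayed between -1.01 and -1.11. The rise at 3 h was lost without replicate 1 or 2 of KO control (adjusted p = 0.0866 and 0.13) or without replicate 2 of KO 3 h (0.0584). As these are bulk pituitaries, fewer cells of a type and less RNA per cell cannot be told apart, here or for any gene below.

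Cadps and Sytl4 differed in the same direction between unstressed KO and WT pituitaries, so the sequences at their starts are shown. Each is the RefSeq window from 250 bases before to 50 bases after the annotated start, on the gene's own strand in GRCm38.p6, with matches to the searched motifs in capitals. Cadps lies at chr14:12823030-12823329 (minus strand) and Sytl4 at chrX:133981763-133982062 (minus strand).
Cadps: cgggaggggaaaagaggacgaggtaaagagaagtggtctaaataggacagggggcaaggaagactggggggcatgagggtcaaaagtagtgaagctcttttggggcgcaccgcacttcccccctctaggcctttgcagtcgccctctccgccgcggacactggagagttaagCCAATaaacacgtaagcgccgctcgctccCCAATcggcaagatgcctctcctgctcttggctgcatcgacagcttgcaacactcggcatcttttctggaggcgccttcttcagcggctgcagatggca
Sytl4: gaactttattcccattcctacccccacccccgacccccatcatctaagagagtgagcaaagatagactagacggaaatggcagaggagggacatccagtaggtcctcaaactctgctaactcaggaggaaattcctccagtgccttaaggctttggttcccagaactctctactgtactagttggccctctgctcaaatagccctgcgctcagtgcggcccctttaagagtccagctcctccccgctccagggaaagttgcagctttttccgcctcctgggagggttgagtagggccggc

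The motifs searched on both strands were the cAMP response element TGACGTCA, its half-site TGACG (which the full element contains), the CCAAT box CCAAT, the GC box GGGCGG and the AP-1 site TGANTCA. The Cadps window held the CCAAT box at 78 and at 49 bases before the start, and the Sytl4 window held none of the 5 motifs' letters. CCAAT occurred in 37.4% of the 32851 windows of this length in RefSeq and in 34.8% of the 69 windows that the exocytosis genes have, which cover 56 of the 71 genes. The full cAMP response element was found in 1.79% of all windows and in those of Stxbp3 and Napa among these genes, while TGACG stood in 20.8% of all windows and 27.5% of theirs, GGGCGG in 35.7% and 60.9%, and TGANTCA in 7.81% and 4.35%.

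The other priming genes did not pass in any comparison. Cadps2, which encodes the related CAPS2, read 7.26 and 6.84 in the KO control pool, 7.07 and 7.47 at KO 1 h and 7.65 and 7.13 at KO 3 h. In WT Cadps2 read 6.19 and 7.27 in the control pool, 6.35 and 7.25 at 1 h and 8.02 and 7.60 at 3 h. Its replicate 1 lay well below replicate 2 in both WT control and WT 1 h, and the largest difference, WT 3 h against control, was 1.08 ± 0.41 (adjusted p = 0.353). Unc13b, which encodes the priming protein Munc13-2, read 8.94 and 9.10 in the KO control pool, 8.73 and 8.68 at KO 1 h and 8.42 and 8.66 at KO 3 h. In WT Unc13b read 8.70 and 8.48 in the control pool, 8.83 and 8.70 at 1 h and 8.48 and 8.44 at 3 h. The KO control arrays of Unc13b were the highest of the 12, 0.43 ± 0.16 above WT controls (adjusted p = 0.186), and KO 3 h lay -0.48 ± 0.16 from KO control (adjusted p = 0.0851).

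Sytl4 encodes granuphilin, a Rab27 effector that docks dense-core granules at syntaxin on the plasma membrane. It read 10.35 and 10.33 in the KO control pool, 10.89 and 11.09 at KO 1 h and 10.76 and 10.89 at KO 3 h. In WT Sytl4 read 11.05 and 11.30 in the control pool, 11.09 and 11.07 at 1 h and 10.67 and 10.82 at 3 h. The 2 KO control arrays were the lowest of the 12 and lay apart from every other pool. Sytl4 was lower in KO controls than in WT controls, at -0.83 ± 0.16 (adjusted p = 0.0381), with -0.70 on slide 1 and -0.96 on slide 2. KO 1 h lay 0.65 ± 0.16 above KO control and KO 3 h 0.48 ± 0.16 above it, and neither passed (adjusted p = 0.163 and 0.0814). WT 3 h lay -0.43 ± 0.16 from WT control (adjusted p = 0.328), and the 2 genotypes' responses at 3 h differed by 0.91 ± 0.22 (adjusted p = 0.0928). The call in controls was lost in 10 of the 12 fits that left out 1 array, with adjusted p between 0.0534 and 0.249 and differences between -0.71 and -0.95, and held only without replicate 1 or 2 of KO 3 h. Sytl3, another Rab27-binding protein, read 6.24 and 6.51 in the KO control pool, 6.51 and 7.08 at KO 1 h and 6.06 and 6.48 at KO 3 h. In WT Sytl3 read 6.76 and 6.49 in the control pool, 7.09 and 7.17 at 1 h and 6.55 and 7.15 at 3 h. Its difference between KO and WT over the pool means, -0.39 ± 0.18, did not pass (adjusted p = 0.515). Sytl1, also a Rab27 effector, ranged over 0.77 between pools, lowest in KO control and highest in WT control, and did not pass in any comparison.

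Of the Rab GTPases, Rab27b rose in KO at 3 h. Rab27b sits on secretory granules and recruits effectors such as granuphilin. It read 5.94 and 6.24 in the KO control pool, 6.28 and 6.66 at KO 1 h and 7.56 and 7.27 at KO 3 h. In WT Rab27b read 6.16 and 6.53 in the control pool, 5.97 and 6.21 at 1 h and 7.10 and 6.48 at 3 h. It was detected on neither KO control array and on 1 of the 2 KO 3 h arrays, so no bound on the fold is given. The fitted log2 difference between KO 3 h and KO control was 1.33 ± 0.26 (adjusted p = 0.0189), and 0.65 without background correction. The difference was 1.62 on slide 1 and 1.03 on slide 2, and the 2 KO 3 h arrays were the highest of the 12. On slide 2, however, Rab27b was detected in neither pool. The lowest detected signal there was 7.58 on the KO 3 h array and 6.33 on the KO control array, so the slide 2 values set no level. WT 3 h lay 0.44 ± 0.26 above WT control (adjusted p = 0.521), the responses of the 2 genotypes at 3 h differed by 0.88 ± 0.36 (adjusted p = 0.254), and over the pool means 3 h lay 0.89 ± 0.27 above control (adjusted p = 0.416). Leaving out replicate 1 or 2 of KO control ended the call, with adjusted p = 0.107 and 0.108. Rab27a, the second Rab27, read 10.43 and 10.56 in the KO control pool, 10.17 and 10.11 at KO 1 h and 9.85 and 9.90 at KO 3 h. In WT Rab27a read 10.27 and 9.79 in the control pool, 10.20 and 10.02 at 1 h and 10.04 and 10.15 at 3 h. Its KO 3 h arrays lay -0.62 ± 0.18 from KO control, in the opposite direction to Rab27b and without passing (adjusted p = 0.0604).

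The Rab3 GTPases mark docked secretory vesicles. Rab3a read 8.06 and 8.16 in the KO control pool, 7.67 and 8.04 at KO 1 h and 7.69 and 6.50 at KO 3 h. In WT Rab3a read 7.49 and 7.44 in the control pool, 7.34 and 7.64 at 1 h and 7.73 and 7.98 at 3 h. Its lowest value was on replicate 2 of KO 3 h, where it was not detected, while replicate 1 lay within the values of other pools. Rab3b read 7.85 and 7.997 in the KO control pool, 7.64 and 7.94 at KO 1 h and 7.38 and 6.44 at KO 3 h. In WT Rab3b read 8.03 and 7.68 in the control pool, 7.56 and 7.62 at 1 h and 7.20 and 7.56 at 3 h. Replicate 2 of KO 3 h was again the lowest array, and Rab3b was not detected on it. KO 3 h lay -1.01 ± 0.33 from KO control for Rab3a (adjusted p = 0.0841) and -1.01 ± 0.29 for Rab3b (adjusted p = 0.0582). Without replicate 1 of KO 3 h, 8 exocytosis genes passed in KO 3 h against control, among them Rab3a and Rab3b, as 28.4% of all features did. In that fit KO 3 h is 1 array, on which Rab3a and Rab3b were not detected, and it is assumed to vary like the other groups. Rab3d read 9.13 and 9.38 in the KO control pool, 9.18 and 9.19 at KO 1 h and 8.98 and 9.40 at KO 3 h. In WT Rab3d read 9.22 and 9.13 in the control pool, 9.11 and 9.09 at 1 h and 8.89 and 9.08 at 3 h. Its pools stayed within 0.27 of each other.

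**Figure D3:**
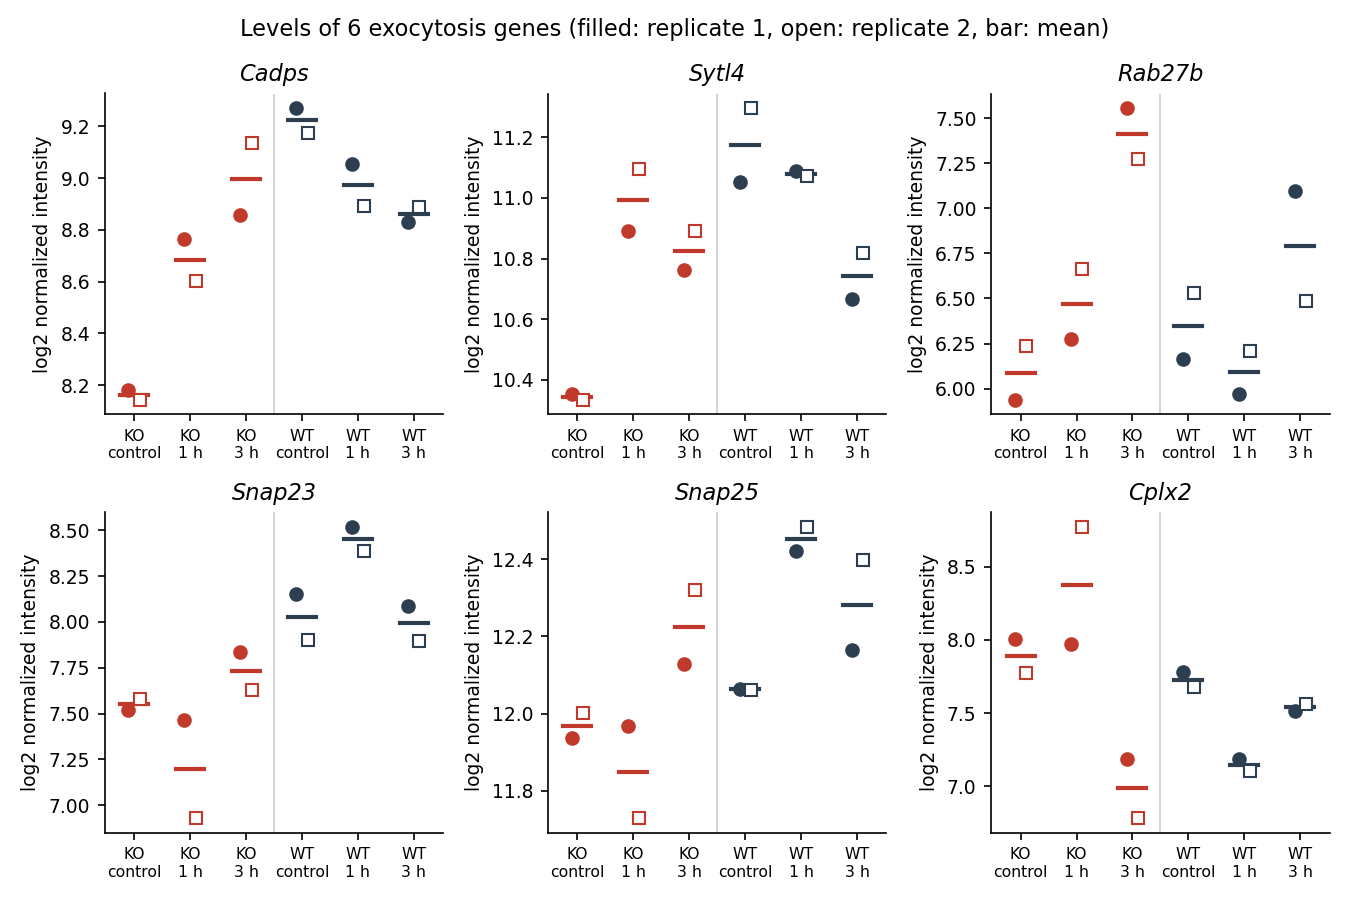
Log2 normalized intensity of 6 genes on each of the 12 arrays (filled circle replicate 1, open square replicate 2, bar the mean of the pool), with KO pools in red left of WT pools in dark blue and each panel on its own scale. KO control is lowest for Cadps and Sytl4, KO 3 h highest for Rab27b and lowest for Cplx2, and KO 1 h lowest for Snap23 and Snap25, by the mean of the pool.

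In the SNAP-25 family, which supplies the membrane-anchored target SNAREs, Snap23 was lower in KO than in WT at 1 h. Snap23 encodes the broadly expressed SNAP-23. It read 7.52 and 7.58 in the KO control pool, 7.47 and 6.93 at KO 1 h and 7.84 and 7.63 at KO 3 h. In WT Snap23 read 8.15 and 7.90 in the control pool, 8.52 and 8.38 at 1 h and 8.09 and 7.90 at 3 h. All 6 KO arrays lay below all 6 WT arrays, and the gap was widest at 1 h, at -1.25 ± 0.20 (adjusted p = 0.0389), with -1.05 on slide 1 and -1.45 on slide 2. In controls the difference was -0.48 ± 0.20 (adjusted p = 0.25), at 3 h -0.26 ± 0.20 (adjusted p = 0.545), and over the 6 pool means -0.66 ± 0.23 (adjusted p = 0.374). The call at 1 h was lost in 9 of the 12 fits that left out 1 array, with adjusted p between 0.0661 and 0.308 and the difference between -0.98 and -1.32 in those fits. It held without replicate 1 of KO 1 h and without either KO 3 h array. Snap25, the neuroendocrine SNAP-25 itself, read 11.94 and 12.001 in the KO control pool, 11.97 and 11.73 at KO 1 h and 12.13 and 12.32 at KO 3 h. In WT Snap25 read 12.06 and 12.06 in the control pool, 12.42 and 12.48 at 1 h and 12.17 and 12.40 at 3 h. At 1 h its arrays were lower in KO without overlap, -0.60 ± 0.16 from WT, and missed the threshold (adjusted p = 0.112), as did WT 1 h against WT control, at 0.39 ± 0.16 (adjusted p = 0.799). Snap29, which acts mainly in fusion between internal membranes, read 8.61 and 8.61 in the KO control pool, 8.69 and 8.77 at KO 1 h and 9.04 and 9.21 at KO 3 h. In WT Snap29 read 8.82 and 8.97 in the control pool, 9.02 and 8.88 at 1 h and 8.64 and 8.80 at 3 h. Its KO 3 h arrays were the highest of the 12, 0.52 ± 0.15 above KO control (adjusted p = 0.0577) and 0.41 ± 0.15 above WT 3 h (adjusted p = 0.205). With median centring in place of quantile normalization the Snap29 difference at 3 h turned to -0.17.

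No syntaxin or syntaxin-binding gene passed. Stx1a, the syntaxin that partners SNAP-25 in hormone release, read 8.87 and 9.15 in the KO control pool, 8.59 and 8.52 at KO 1 h and 8.06 and 8.85 at KO 3 h. In WT Stx1a read 8.56 and 8.75 in the control pool, 8.34 and 8.65 at 1 h and 8.24 and 8.47 at 3 h. The KO 3 h arrays of Stx1a spanned the range from the lowest array to one of the highest. Its KO control arrays were the highest of the 12, and Stx1a did not pass in any comparison. Stx11, known from granule release by immune cells, read 6.20 and 6.21 in the KO control pool, 6.02 and 5.69 at KO 1 h and 6.33 and 5.67 at KO 3 h. In WT Stx11 read 5.40 and 5.97 in the control pool, 6.09 and 6.15 at 1 h and 6.29 and 6.58 at 3 h. It was detected on 5 arrays, on neither in WT control and on both in WT 3 h. WT 3 h was at least 1.2-fold higher than WT control for Stx11, with an adjusted p of 0.304. Stx17, the syntaxin of autophagosomes, read 5.66 and 5.82 in the KO control pool, 5.68 and 5.27 at KO 1 h and 5.58 and 5.66 at KO 3 h. In WT Stx17 read 6.33 and 6.24 in the control pool, 5.54 and 5.31 at 1 h and 5.82 and 6.60 at 3 h. Stx17 was detected on 1 WT control and 1 WT 3 h array. WT 1 h against WT control, its smallest p, had an adjusted p of 0.602, and no fold is given. The other tested syntaxins, Stx2, Stx3 and Stx4a of the plasma membrane and Stx5a, Stx6, Stx7, Stx8, Stx12 and Stx18 of the Golgi, endosomes and endoplasmic reticulum, did not pass in any comparison either. Stxbp4, a syntaxin 4 binding protein, read 7.63 and 7.20 in the KO control pool, 7.86 and 8.45 at KO 1 h and 8.27 and 7.74 at KO 3 h. In WT Stxbp4 read 7.66 and 8.13 in the control pool, 7.74 and 8.15 at 1 h and 8.22 and 7.84 at 3 h. Both KO 1 h arrays lay above both KO control arrays, 0.74 ± 0.30 apart (adjusted p = 0.35). Stxbp2, which encodes Munc18-2, ranged over 0.44 between pools and passed nowhere.

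The VAMPs, the SNAREs of the vesicle itself, did not pass in any comparison. Vamp2, the main vesicle SNARE of neuroendocrine cells, read 10.40 and 10.67 in the KO control pool, 10.71 and 11.03 at KO 1 h and 10.32 and 10.39 at KO 3 h. In WT Vamp2 read 10.58 and 10.59 in the control pool, 10.65 and 10.66 at 1 h and 10.91 and 10.96 at 3 h. At 3 h both KO arrays lay below both WT arrays, by -0.58 ± 0.17 (adjusted p = 0.127). The alternatives that left out no single array put this difference between -1.13 and -0.54. Vamp8, which serves endosomes and granule release in several secretory cells, read 9.93 and 9.89 in the KO control pool, 9.56 and 9.50 at KO 1 h and 9.37 and 9.48 at KO 3 h. In WT Vamp8 read 9.35 and 9.31 in the control pool, 9.47 and 9.23 at 1 h and 9.53 and 9.25 at 3 h. Its KO control arrays were the highest of the 12, 0.58 ± 0.16 above WT controls (adjusted p = 0.0936). Vamp1 read 6.37 and 6.34 in the KO control pool, 6.08 and 5.66 at KO 1 h and 5.99 and 6.61 at KO 3 h. In WT Vamp1 read 5.64 and 6.07 in the control pool, 5.80 and 5.71 at 1 h and 5.73 and 5.71 at 3 h. It was detected on the 2 KO control arrays and no other, so no fold is given between the 3 h pools. Vamp3 ranged over 0.49 between pools, and the pools of Vamp4 were the closest together of any tested gene.

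Of the synaptotagmins, the 10 tested genes passed in no comparison. Syt1, the fast calcium sensor of release, read 11.07 and 11.004 in the KO control pool, 11.04 and 10.73 at KO 1 h and 10.94 and 10.77 at KO 3 h. In WT Syt1 read 10.63 and 10.58 in the control pool, 10.92 and 10.79 at 1 h and 10.85 and 10.92 at 3 h. KO controls lay 0.43 ± 0.16 above WT controls for Syt1 without overlap, and missed the threshold (adjusted p = 0.182). Syt4, a granule-associated synaptotagmin, read 11.38 and 11.23 in the KO control pool, 11.44 and 11.22 at KO 1 h and 11.75 and 11.67 at KO 3 h. In WT Syt4 read 11.52 and 11.62 in the control pool, 11.44 and 11.75 at 1 h and 11.35 and 11.42 at 3 h. Its KO 3 h arrays lay 0.41 ± 0.16 above KO control (adjusted p = 0.141). Syt5, another calcium-binding member, read 7.80 and 7.92 in the KO control pool, 7.65 and 7.73 at KO 1 h and 7.92 and 7.96 at KO 3 h. In WT Syt5 read 7.94 and 7.78 in the control pool, 7.68 and 7.35 at 1 h and 7.35 and 7.43 at 3 h. At 3 h its KO arrays lay 0.55 ± 0.16 above WT (adjusted p = 0.133), and WT 3 h lay -0.46 ± 0.16 from WT control (adjusted p = 0.301). The Syt5 difference between KO and WT at 3 h depended on the processing, and ranged from 0.02 to 0.55 in the alternatives that left out no single array. The remaining 7, Syt9, Syt11, Syt12, Syt13, Syt15, Syt16 and Syt17, include 3 with few detections: Syt12 and Syt15 on 2 arrays each and Syt13 on 8.

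Neither tested complexin passed, and both had their lowest value on replicate 2 of KO 3 h, where neither was detected. Cplx2, which binds the assembled SNARE complex, read 8.01 and 7.77 in the KO control pool, 7.97 and 8.77 at KO 1 h and 7.19 and 6.78 at KO 3 h. In WT Cplx2 read 7.78 and 7.68 in the control pool, 7.19 and 7.11 at 1 h and 7.52 and 7.56 at 3 h. At 1 h the KO arrays lay above the WT arrays without overlap, by 1.23 ± 0.26 (adjusted p = 0.0602), and in KO the 3 h arrays lay -0.90 ± 0.26 from control (adjusted p = 0.0542). Both missed the threshold by little. Leaving out 1 array put the difference at 1 h between 0.82 and 1.62 and KO 3 h against control between -1.11 and -0.71. With detection on at least 6 arrays both passed (limma's adjusted p = 0.0456 and 0.0416). The difference at 1 h also passed without background correction and with array weights (0.0263 and 0.0227). In the alternatives that left out no single array, it did not pass in 6 of 9 (adjusted p up to 0.241). KO 3 h against control did not pass in 8 of 9 (up to 0.245). Cplx1, its close relative, read 6.95 and 7.32 in the KO control pool, 7.48 and 6.51 at KO 1 h and 6.45 and 5.87 at KO 3 h. In WT Cplx1 read 6.71 and 6.47 in the control pool, 7.11 and 7.33 at 1 h and 6.22 and 6.14 at 3 h. Cplx1 was detected on 9 arrays. KO 3 h lay -0.97 ± 0.32 from KO control for Cplx1 (adjusted p = 0.0836), and over the pool means 3 h lay -0.69 ± 0.26 from control (adjusted p = 0.434).

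The disassembly genes did not pass in any comparison. Nsf, the ATPase that recycles SNAREs, read 9.82 and 10.04 in the KO control pool, 9.87 and 10.001 at KO 1 h and 9.63 and 10.11 at KO 3 h. In WT Nsf read 10.21 and 10.13 in the control pool, 10.19 and 10.10 at 1 h and 9.77 and 10.05 at 3 h. Napa, which encodes alpha-SNAP, the adaptor that loads NSF onto SNARE complexes, read 7.36 and 6.77 in the KO control pool, 7.20 and 7.54 at KO 1 h and 7.30 and 6.31 at KO 3 h. In WT Napa read 7.30 and 7.16 in the control pool, 7.39 and 7.15 at 1 h and 7.62 and 7.25 at 3 h. Its lowest value was on replicate 2 of KO 3 h, where Napa was not detected. Neither gene had an unadjusted p under 0.05 in any of the 12 comparisons, and Napb and Napg encode beta-SNAP and gamma-SNAP, 2 further adaptors.

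The stress responses of the 2 genotypes share no arrays, and their values can be set side by side. At 3 h Rab27b lay 1.33 ± 0.26 from control in KO and 0.44 ± 0.26 in WT, Cadps 0.83 ± 0.16 and -0.36 ± 0.16, Sytl4 0.48 ± 0.16 and -0.43 ± 0.16, and Rab3a -1.01 ± 0.33 and 0.38 ± 0.33. Cadps, Sytl4 and Rab3a thus had opposite signs in KO and WT, and no interaction passed, the smallest adjusted p being that of Cadps at 3 h (0.0656). Rab3a was not detected on replicate 2 of KO 3 h, its lowest array. Rab27b was not detected on replicate 2 of KO 3 h or on either KO control array. At 1 h Cadps lay 0.52 ± 0.16 from control in KO and -0.25 ± 0.16 in WT, with an interaction of 0.77 ± 0.22 (adjusted p = 0.322).

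**Figure D4:**
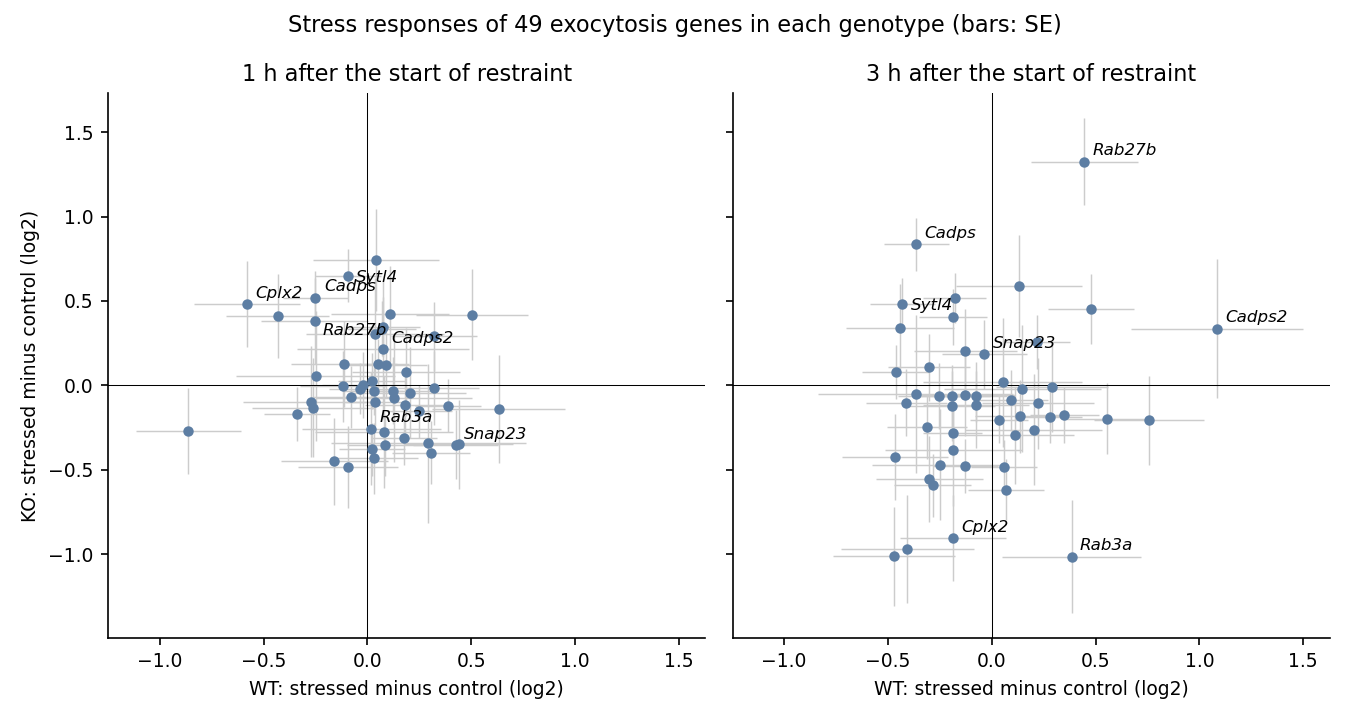
Log2 difference from control of each of the 49 tested genes in KO (vertical axis) against that in WT (horizontal axis), at 1 h (left) and 3 h (right), with bars of 1 standard error. At 3 h Rab27b lies at 1.33 in KO and 0.44 in WT and Cadps at 0.83 and -0.36, while most genes lie within 0.5 of 0 on both axes.

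Some genes had more than 1 measured probe, and 11 could be checked that way. Probes of 1 gene differed in direction for several genes. For Syt1 KO control against WT control was 0.43 and 0.45 on 2 probes and -0.19 on the third. For Syt4 KO 3 h against control was 0.41 on the brightest probe and -0.12 on another, which was detected on 3 arrays. For Stxbp4 the same comparison gave 0.59 and -0.12, and for Napa -0.26 and 0.31. For Stx8 in KO 3 h against control the brightest probe gave -0.12, and another -0.97 (adjusted p = 0.0504). For Vamp4 in KO against WT at 1 h the values were -0.03 on the brightest probe and -0.81 on the other (adjusted p = 0.0638), and for Vamp8 in KO against WT controls they were 0.58 and 0.27. For Stxbp4 in KO 1 h against control they were 0.74 and 0.11. Cadps and Sytl4 have 1 probe each, and the second probes of Snap23 and Rab27b were too dim to test.

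Genes that work with this machinery were read from 4 lists outside the set, and few of them passed. Granule cargo and prohormone processing genes showed 2 higher and 0 lower of 10 tested in KO 3 h against control (median 0.50), where 4.02% of all features were higher and their median was -0.11. In KO against WT controls 0 were higher and 1 lower (median -0.30), where 1.48% of all features were lower and their median was 0.01. The 2 higher were Scg5, which encodes 7B2, a chaperone of the prohormone convertase PC2, and Gnas, whose products include the stimulatory G protein alpha subunit and the granule protein NESP55. Scg5 read 12.81 and 12.92 in the KO control pool, 13.45 and 13.63 at KO 1 h and 13.93 and 13.87 at KO 3 h. In WT Scg5 read 13.76 and 13.63 in the control pool, 13.42 and 13.46 at 1 h and 13.51 and 13.57 at 3 h. Like Cadps and Sytl4, Scg5 was lowest on the 2 KO control arrays, -0.83 ± 0.14 from WT control (adjusted p = 0.0296), and it was 1.03 ± 0.14 higher at KO 3 h than in KO control (adjusted p = 0.00803). For Gnas KO 3 h was 0.72 ± 0.17 higher on the brightest probe (adjusted p = 0.0309), while 2 of its other 5 probes gave -0.93 and -0.36 and 1 of the 5 passed. Without replicate 1 or 2 of KO control the rise of Scg5 no longer passed (adjusted p = 0.0636 and 0.0747), nor did that of Gnas (0.088 and 0.206). With median centring the rise of Scg5 was 0.53 (adjusted p = 0.347) and that of Gnas 0.26 (0.695), and on the groups compared alone neither passed (0.242 and 0.253). The lower Scg5 in KO controls did not pass in those fits either (0.329 and 0.0955). The lower Scg5 in KO than WT controls was lost in 8 of the 12 fits that left out 1 array (adjusted p between 0.055 and 0.19, the highest without replicate 2 of KO control).

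Of all features, 4.02% passed as higher and 10.6% in either direction in KO 3 h against control, with a median of -0.11. The counts of the lists below are to be read beside these shares. Of 25 tested docking, active zone and tethering genes, 0 rose and 2 fell in this comparison (median 0.10). They were Rims3, an active zone protein of the RIM family, at -1.38 ± 0.22 (adjusted p = 0.0114), and Exoc7, a subunit of the exocyst tether, at -0.65 ± 0.17 (adjusted p = 0.0464). Another probe of Exoc7 gave 0.68. In KO against WT at 3 h Doc2b, a calcium-binding protein of granule release, was detected on both WT 3 h arrays and on no other. It entered the fit through those arrays alone, so its lower level at KO 3 h is a description and its p is not given. Of 17 vesicle membrane proteins, 1 rose and 1 fell in KO 3 h against control (median 0.18): Syn1, which encodes the vesicle-tethering synapsin I, with 0.73 ± 0.15 (adjusted p = 0.023) but -0.35 on another probe, and Scamp2, a carrier membrane protein, with -0.63 ± 0.15 (adjusted p = 0.033). Of 16 SNAREs and SNARE regulators of the endoplasmic reticulum, Golgi and endosomes, 1 rose and 1 fell (median -0.25): Bet1l, a Golgi SNARE, with 0.93 ± 0.17 (adjusted p = 0.0153), and Scfd2, a Sec1 family member, with -1.14 ± 0.25 (adjusted p = 0.0267). All these calls in KO 3 h against control were lost without either KO control array, with adjusted p between 0.0715 and 0.206, and those of Exoc7 and Scamp2 also without most other single arrays. They were lost too with array weights (0.056 to 0.178), on the groups compared alone (0.242 to 0.261) and, except that of Rims3, with median centring (0.0975 to 0.483). No other gene of the 4 lists passed in the other comparisons.

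Marker genes of pituitary cell types moved in the same comparisons, and their part in the results above was not tested. Ghrhr, the growth hormone-releasing hormone receptor of somatotropes, read 8.38 and 8.53 in the KO control pool, 8.95 and 9.37 at KO 1 h and 9.34 and 9.49 at KO 3 h. In WT Ghrhr read 9.72 and 9.65 in the control pool, 9.39 and 9.22 at 1 h and 9.30 and 9.79 at 3 h. Its KO control arrays were the lowest of the 12, as for Cadps, with -1.23 ± 0.21 in KO against WT controls (adjusted p = 0.0296) and 0.96 ± 0.21 in KO 3 h against control (adjusted p = 0.0258). Both Ghrhr calls were lost without either KO control array (adjusted p between 0.131 and 0.19), with median centring (0.0586 and 0.249) and on the groups compared alone (0.0739 and 0.242). Another probe of Ghrhr kept the sign and passed in neither comparison. The call in controls was also lost without any 1 of the WT control or WT 1 h arrays. That at 3 h was also lost with array weights and without replicate 2 of KO 3 h. Ghrhr is 1 of 2 tested somatotrope genes, and the other, Gh, did not pass and lies near the top of the scanner range. Gh had the opposite sign to Ghrhr in KO against WT controls and was not higher in KO 3 h against control. The medians of the 2, -0.56 and 0.48, thus reflect Ghrhr and not both genes. In KO against WT controls Sox9, a marker of folliculostellate and stem cells, was higher by 1.54 ± 0.24, and the red cell genes Hbb-b2 and Hbb-bs by 1.78 ± 0.25 and 0.80 ± 0.15 (adjusted p = 0.0228, 0.0157 and 0.04). Sox9 was the 1 folliculostellate and stem gene of 4 that passed, with 3 of the 4 positive (median 0.10). Of the 5 red cell genes 2 passed, and all 5 were positive (median 0.47). The 5 measured red cell genes summed to 11808 and 11184.3 intensity units in KO control, against 7651.1 and 7726.2 in WT control. In KO 3 h against control the endothelial gene Plvap and the corticotrope factor Tbx19 were higher by 1.25 ± 0.19 and 0.98 ± 0.23 (adjusted p = 0.00977 and 0.0323), and the thyrotrope hormone gene Tshb lower, at -1.14 ± 0.18 (adjusted p = 0.011). Trhr, also of thyrotropes, and Hbb-bs were lower too, at -0.81 ± 0.21 and -0.68 ± 0.15 (limma's adjusted p = 0.0419 and 0.0283). Lcn2, of the folliculostellate and stem list, was higher by 0.85 ± 0.16 (adjusted p = 0.016). Plvap was the 1 endothelial gene of 4 that passed, with 2 of the 4 positive (median 0.21), and Tbx19 the 1 corticotrope gene of 5, with 3 of the 5 positive (median 0.32). Positive were 0 of 3 thyrotrope, 1 of 5 red cell and 2 of 4 folliculostellate and stem genes (medians -1.14, -0.21 and -0.06). On the posterior lobe glia, neuron and oligodendrocyte list, Nefh passed as higher, by 1.18 ± 0.32 (limma's adjusted p = 0.0472). It was the 1 positive gene of the 6 tested there (median -0.76). In KO against WT controls none of these 6 passed, and 4 were positive (median 0.81). Lipf, of the exocrine or gut list, was at least 14-fold higher in KO 3 h than in KO control, a description, since it entered the fit through the KO 3 h arrays alone. At 1 h, where Snap23 was lower in KO, no marker gene passed between KO and WT, but some came close. Lcn2 of the folliculostellate and stem list lay -0.84 ± 0.16 from WT (adjusted p = 0.0513 by limma). Hbb-b2 lay 1.24 ± 0.25 and the macrophage gene Cd74 0.89 ± 0.19 above WT (0.0577 and 0.0618). All 5 red cell genes were positive (median 0.63).

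**Figure D5:**
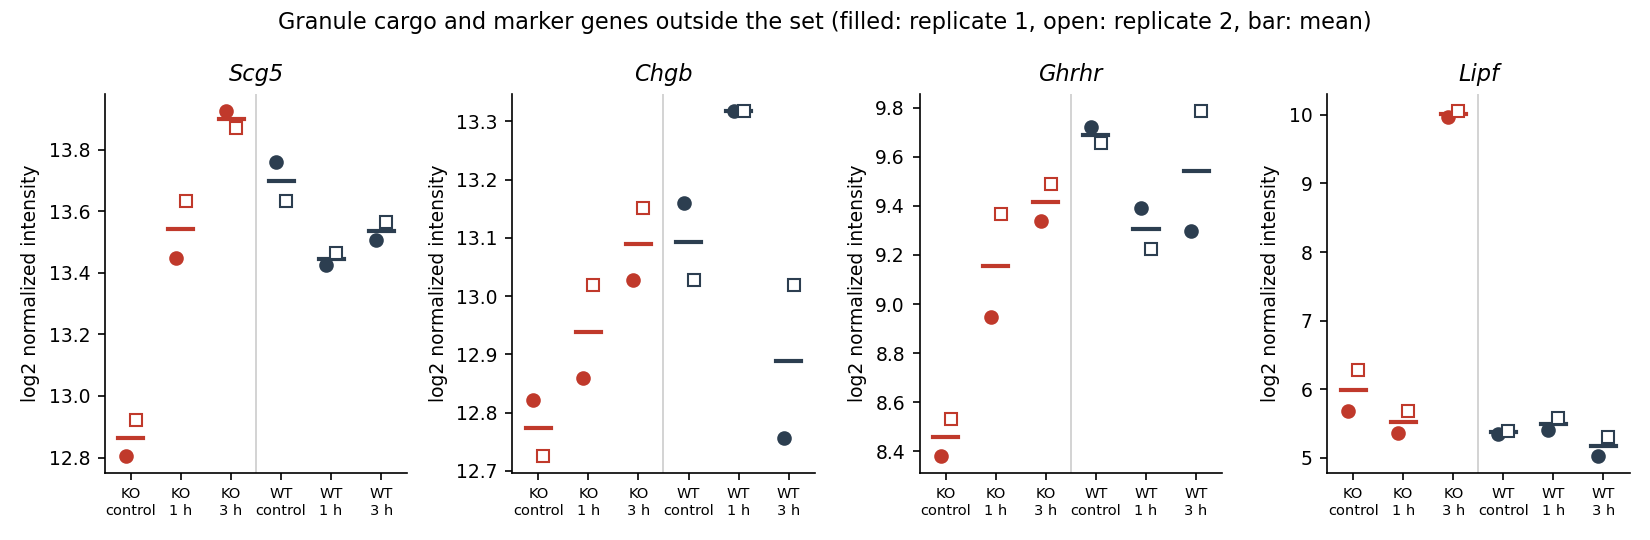
Log2 normalized intensity on each array (filled circle replicate 1, open square replicate 2, bar the mean of the pool) of the granule genes Scg5 and Chgb, the somatotrope gene Ghrhr and the exocrine or gut gene Lipf, with KO pools in red left of WT pools in dark blue. The KO control arrays are lowest for Scg5 and Ghrhr, and Lipf stands at 9.97 and 10.06 in KO 3 h and at 6.28 or below on all other arrays.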

How the data were processed

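Gene expression was measured in 6 pituitary RNA pools on 12 Illumina arrays. The authors deposited, for each array, a mean bead intensity per probe, per the file headers, with no normalization or background subtraction seen in the values, and a detection p-value per probe, per the file headers, made with BeadStudio per the submitters' processing notes. A separate deposited table of intensity values, already normalized by the authors in a way not given in the sources used here, served as an alternative and lacks 14 probes, which were left out of tests.

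Intensities were corrected with limma 3.58.1 in R 4.3.3 (normexp on the detection p-values, offset 16), quantile normalized and put on the log2 scale. Probes with a detection p-value under 0.01 on at least 2 arrays were kept (14405), and the brightest probe per symbol gave 11731 features, 8557 of them named. Symbols came from the platform's probe table, in which 29542 probes had 1 symbol, 11 several and 16594 none, and all 71 genes matched RefSeq by gene ID. Comparisons used lmFit and eBayes on all 12 arrays with 1 term per group, or on 6 pool means with genotype and treatment. P-values were adjusted by Benjamini-Hochberg over all features. Where the dimmer pool was detected on neither array and the brighter on both, the fold is a bound against the lowest detected signal. The number of arrays limits the precision, and the hormone genes lie near the top of the scanner range.

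The genes named with values on every array are those that passed, a fixed set of core genes, and the 3 of smallest p in each comparison. For other lists, up to 3 genes that passed are named per comparison. Members and lists were chosen with earlier results of these data known. The replicate number is the slide, per the file headers, each slide holding 1 array of every group in the same positions, so position and group cannot be told apart. Deviations of same-numbered arrays correlated between -0.156 and 0.474 over the 15 pairs of groups. Alternatives were median centring, no background correction, the authors' values, no detection filter, a filter of 6 arrays, a slide block, array weights, fits on the compared groups alone and leaving out each array.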

Additional observations from a re-analysis of the deposited data

How the results depend on the processing

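Each count of passing exocytosis genes was recomputed in 21 alternatives per array comparison and 19 per pool comparison, 12 of them leaving out 1 array, and 5 of the 12 counts were the same in all. For KO 3 h against control, 2 genes in the fit reported, the count was 0 with median centring (1.41% of all features passing), 5 with detection on at least 6 arrays (14.4%), 0 with array weights (0.929%) and 0 on the arrays of the groups compared alone (0%). For KO against WT controls, also 2, it was 0 with median centring (0.298%), 1 with the authors' values (1.33%), 1 with no detection filter (0.312%) and 0 on the groups compared alone (0.111%). For KO against WT at 1 h, with 1, it was 0 with median centring (0.179%), 3 without background correction (2.19%), 0 with the authors' values (0.324%), 0 with no detection filter (0.105%), 2 with detection on at least 6 arrays (2.08%), 2 with array weights (3.95%) and 0 on the groups compared alone (0%). Counts of 0 became 1 for KO against WT over the pool means with median centring (2.55%), 1 for KO 1 h against control (0.921%) and 2 for the interaction at 3 h (3.01%) without background correction, and 1 for that interaction with detection on at least 6 arrays (0.894%). Leaving out 1 array gave counts between 0 and 8 for KO 3 h against control, 0 and 2 for KO against WT controls, 0 and 2 for KO against WT at 1 h, 0 and 5 at 3 h (5 without replicate 1 of KO 3 h), and 0 and 6 for the interaction at 3 h (6 without the same array). In these 2 last cases 22.5% and 15.7% of all features passed. The share of all features that passed in KO 3 h against control was 0.397% and 0.137% without replicate 1 or 2 of KO control.

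Of 36 differences of exocytosis genes, 23 stayed on their side of the threshold throughout and 35 kept their sign, the exception being Snap29 at 3 h. Other probes reversed 3 genes outside the set in KO 3 h against control: Exoc7 (0.68), Gnas (-0.93 and -0.36) and Syn1 (-0.35), and the cause was not tested, here or for the counts above except that leaving out arrays or groups leaves fewer arrays to set the spread. Those alternatives for genes outside the set were chosen after seeing the data. Median centring moved the median of all features in KO 3 h against control to -0.24, against -0.11 with quantile normalization (exocytosis genes -0.29 and -0.11), and that in KO against WT at 3 h to -0.51, against -0.09 (exocytosis genes -0.61 and -0.06). With the replicate block, which is the slide, 2 exocytosis genes passed in KO 3 h against control, 2 in KO against WT controls and 1 in KO against WT at 1 h, and the block changed no call of a gene named with a value (Cadps in controls -1.06 ± 0.15, adjusted p = 0.0198 by limma). Dim signal limits the 22 genes below the filter and the bounds.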
